A study of Homo sapiens with 24 samples.

Results

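The response to all-trans retinoic acid (ATRA) of NB4 cells was set against that of HL-60 cells, gene by gene, as the log2 change with ATRA in NB4 minus the log2 change with ATRA in HL-60. The comparison used 12 of the 24 libraries of the series, 3 in each of 4 groups: NB4 with 1 µM ATRA for 48 h, untreated NB4, HL-60 with 1 µM ATRA for 48 h, and untreated HL-60. NB4 is a cell line from acute promyelocytic leukaemia, and HL-60 is an acute myeloid leukaemia line whose cell type is given as promyeloblast. Both carry the genotype label WT, and both grew in the same serum-containing medium. Each is a single line, so the PML-RARA fusion of NB4 and every other difference between the lines cannot be told apart. The remaining 12 libraries held arsenic trioxide alone or with ATRA and entered the gene filter, the scaling and the shared estimate of spread. Those with both drugs also entered a comparison that is set side by side below. The libraries of a group are numbered by a label called batch, and nothing says that they came from separate cultures, so p-values measure the spread between these libraries, which may be technical.

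ATRA is the ligand of the retinoic acid receptors, which sit on DNA as partners of the retinoid X receptors and switch from repression to activation when bound. In acute promyelocytic leukaemia the fusion of PML with the receptor RARA holds myeloid differentiation genes down, and pharmacological ATRA releases that block and sends promyelocytes towards granulocytes. HL-60 has normal RARA and also matures towards granulocytes with ATRA, so that shared targets, such as the enzymes that clear retinoic acid, sit beside genes that answer in only 1 of the lines. Gene counts do not show the fusion transcript, so this label was not checked.

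Promoter sequences are shown for the gene groups in which the lines differed together, taken from RefSeq (GRCh38.p14) as 60 bases around a motif match in the 250 bases before to 50 bases after a gene's start. Interferon-stimulated genes are bound by the STAT and IRF factors at the interferon-stimulated response element, searched here as GAAA, 2 bases and GAAA on both strands. Capitals mark the match in these promoters of PARP14 (chr3:122680785-122680844, + strand), OAS3 (chr12:112938306-112938365, + strand), DTX3L (chr3:122564298-122564357, + strand), HERC5 (chr4:88456972-88457031, + strand, where matches overlap) and the immunoproteasome gene PSMB10 (chr16:67936837-67936896, - strand).
PARP14: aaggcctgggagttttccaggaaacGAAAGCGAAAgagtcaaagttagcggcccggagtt
OAS3: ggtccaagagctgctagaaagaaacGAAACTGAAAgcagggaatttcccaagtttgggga
DTX3L: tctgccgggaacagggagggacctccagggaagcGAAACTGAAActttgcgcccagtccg
HERC5: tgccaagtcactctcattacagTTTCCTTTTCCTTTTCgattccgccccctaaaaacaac
PSMB10: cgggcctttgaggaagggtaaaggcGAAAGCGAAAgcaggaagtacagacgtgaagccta

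Retinoic acid receptors bind direct repeats of a short hexamer. The exact repeat spaced by 5 bases was found in 0 of 11702 tested genes with a promoter. A relaxed form, chosen after the data were seen, lets each copy be A or G, G, G or T, T, C, A. Of tested genes with a promoter 0.0855% held the relaxed form, against 0.0835% of those more positive in NB4 and 0.0834% of those more negative. The 2 genes shown for it were taken whether or not their line difference passed the test. It was found in 31 promoters of the whole RefSeq table (0.0883%), among them those of RARB (chr3:25428188-25428247, + strand) and CYP26A1 (chr10:93073781-93073840, + strand), where capitals mark it.
RARB: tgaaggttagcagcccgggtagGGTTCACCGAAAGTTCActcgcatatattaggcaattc
CYP26A1: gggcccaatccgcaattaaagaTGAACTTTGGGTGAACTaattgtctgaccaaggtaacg
MYC and its partner MAX bind the E-box CACGTG, which is shown in the promoters of the ribosome assembly genes UTP20 (chr12:101280065-101280124, + strand) and GNL3 (chr3:52685992-52686051, + strand).
UTP20: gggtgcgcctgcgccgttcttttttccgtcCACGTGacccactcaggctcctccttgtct
GNL3: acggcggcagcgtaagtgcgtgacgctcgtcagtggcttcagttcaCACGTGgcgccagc

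The 12 libraries held 39769156 to 57795273 counts, and mitochondrial genes took 4.391 to 6.664% of them. The first principal component (63.7% of the variance) separated the lines and the second (22.2%) separated ATRA from untreated libraries. Libraries of ATRA-treated NB4 were the least alike, by a chi-square of counts for each degree of freedom. It was 39.3 between replicates 2 and 3, 20.5 between 1 and 2 and 15.5 between 1 and 3. Pairs in other groups gave 4.77 to 14.9. Without replicate 2 of ATRA-treated NB4, 3244 differences were more positive in NB4 and 3198 more negative. Without replicate 3 these counts were 3121 and 2557, against 3178 and 3007 with all libraries. The gene groups were recounted without replicate 2 only. Without replicate 2, the counts of calls of the gene groups described below moved by at most 2 genes in either direction, with 4 exceptions. These were interferon-stimulated genes, cytosolic ribosomal proteins, G2 and mitosis, and NRF2 and glutathione, whose counts without replicate 2 are given. Summed myeloid progenitor markers stood at 6680 to 7440 CPM (counts scaled to library size) in ATRA-treated NB4 and 9430 to 10100 CPM in untreated NB4. They stood at 2650 to 2800 CPM in ATRA-treated HL-60 and 4500 to 5080 CPM in untreated HL-60. In NB4 most of the sum was MPO, with 4480 to 4940 CPM under ATRA and 8520 to 9170 CPM untreated. Of the 9 markers tested, 5 rose and 4 fell in NB4, and 3 rose and 5 fell in HL-60. Of 12 erythroid markers 9 had 0 reads in all 12 libraries. CSF2RA, a myeloid marker, also had 0 reads in all of them, and whether its reads were lost in counting was not tested. Summed B and plasma cell markers stood at 34.2 to 38.8 CPM in ATRA-treated NB4 and 11.2 to 12.0 CPM in untreated NB4. They stood at 2.99 to 4.53 CPM in ATRA-treated HL-60 and 2.59 to 3.08 CPM in untreated HL-60. SDC1 alone made 20.6 to 22.0 CPM of the sum in ATRA-treated NB4. The part of these markers in the results was not tested.

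With ATRA, the lines answered many genes in the same direction but by unequal amounts, and NB4 mostly by more. Of 17930 genes tested, 6185 differed between the lines in their response (34.5%, edgeR quasi-likelihood test, adjusted p below 0.05). The difference was more positive in NB4 for 3178 genes (17.7%) and more negative for 3007 (16.8%). It was at least 2-fold for 2138 genes, 1482 of them more positive in NB4 and 656 more negative. In NB4, 4958 genes rose with ATRA (27.7%) and 4871 fell (27.2%), while in HL-60 3813 rose (21.3%) and 3773 fell (21.0%). The median absolute response was 0.53 in NB4 and 0.36 in HL-60 on the log2 scale.

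Unequal answers in a shared direction made the largest class among the 6185 genes. In 2457 of them both lines changed the same way, and the NB4 change was the larger in 2070. A change was called in NB4 alone for 2244 genes, of which 1037 rose and 1207 fell, and in HL-60 alone for 774, of which 361 rose and 413 fell. The lines went opposite ways in 598 genes, with 319 that rose in NB4 and fell in HL-60 and 279 that fell in NB4 and rose in HL-60. In the last 112 neither response was called. Among the 5720 genes called in both lines 5122 shared their direction (89.5%), and 1817 had an interval of the difference within 0.5 on the log2 scale either side of 0. Across genes, the NB4 and HL-60 responses, which share no library, correlated at a Pearson r of 0.56 and a Spearman rho of 0.50. At a mean of at least 10 CPM these values were 0.74 and 0.65 over 8793 genes. Genes are not independent replicates, and the untreated libraries of a line enter all of its values.

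**Figure D1:**
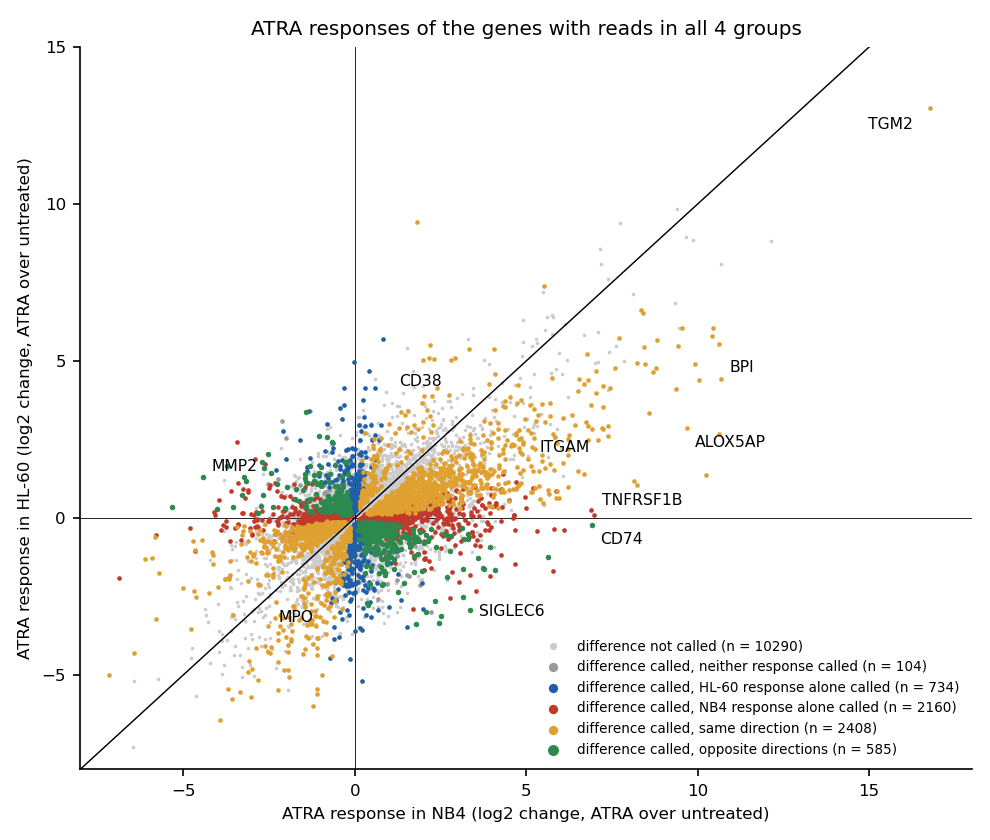
Each point is a gene, with its log2 response to ATRA in NB4 on the horizontal axis and in HL-60 on the vertical axis; 16281 genes with reads in all 4 groups are drawn, and colours mark the classes of called differences. ALOX5AP (9.68 in NB4, 2.87 in HL-60) lies far to the right of the line of equal responses, CD38 above it, and SIGLEC6 to the lower right, where NB4 rose and HL-60 fell.

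The levels of the lines also moved further apart under ATRA. The lines differed at 12571 genes with ATRA and at 11324 genes untreated. The median absolute difference between the lines over all tested genes was 0.81 with ATRA and 0.67 untreated (log2). Of the 6185 genes with an unequal response, the lines were further apart after ATRA in 3953 and closer in 2232. The called difference is itself part of the gap after ATRA, so this split is no separate support. RNA of whole cultures was measured, so fewer cells of a kind and less RNA per cell cannot be told apart in any of these values.

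Among genes expressed in both lines (at least 5 CPM in the higher group of each, a filter chosen after values were seen), the largest positive differences were mostly of genes with very low counts in untreated NB4, several of them well expressed in untreated HL-60. ALOX5AP (chr13:30713478-30764426 in GENCODE v29, GRCh38), which hands arachidonic acid to 5-lipoxygenase for leukotriene synthesis, stood at 1040, 888 and 1150 CPM in ATRA-treated NB4 and 1.38, 1.22 and 1.15 CPM in untreated NB4. Its HL-60 values were 523, 549 and 526 CPM with ATRA and 70.8, 78.2 and 69.3 CPM untreated. The ATRA libraries lay above the untreated ones in both lines with no overlap, and the response was 9.68 in NB4 and 2.87 in HL-60, a difference of 6.81 ± 0.17 (log2, SE; n = 3 per group; adjusted p 5.4e-25, edgeR).

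LSP1 (chr11:1852970-1892267), an actin-binding protein of leukocytes, stood at 108, 86.0 and 133 CPM in ATRA-treated NB4 and at 0.115, 0 and 0.082 CPM in untreated NB4. In HL-60 it stood at 591, 568 and 589 CPM with ATRA and at 89.4, 97.3 and 86.1 CPM untreated. Both lines rose, by 10.62 and 2.68, but ATRA-treated NB4 stayed far below ATRA-treated HL-60 (difference 7.94 ± 0.77, adjusted p 2.53e-18). TNFRSF1B (chr1:12167003-12209228), a receptor for tumour necrosis factor, measured 31.5, 23.4 and 49.9 CPM in ATRA-treated NB4 and 0.299, 0.28 and 0.246 CPM in untreated NB4. HL-60 held 95.3, 90.3 and 89.1 CPM with ATRA and 83.9, 90.5 and 85.7 CPM untreated. These HL-60 groups overlapped and the response of 0.08 was not called there, so the difference of 6.90 ± 0.45 came with a rise that was called in NB4 alone (adjusted p 9.11e-18). CD74, the invariant chain of MHC class II, reached 7.56, 7.07 and 7.81 CPM in ATRA-treated NB4, against 0.0459, 0.0935 and 0.041 CPM in untreated NB4. It measured 473, 478 and 429 CPM in ATRA-treated HL-60 and 540, 567 and 521 CPM in untreated HL-60, where it fell by 0.24. NB4 thus rose 6.92 yet remained far below HL-60, and HLA-DRA, the class II alpha chain, had 0 reads in all 6 NB4 libraries while HL-60 held 80.5 to 84.1 CPM with ATRA and 75.7 to 83.3 CPM untreated.

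Of the 10 measured MHC class II genes CD74 and the protease gene CTSS passed the test, both more positive in NB4, and 4 had 0 reads in a whole line, which leaves no response to compare there. For this and every list below, the shares over all tested genes were 17.7% more positive and 16.8% more negative. BPI, a bactericidal granule protein, rose 10.68 in NB4 to 390, 323 and 468 CPM, against 0.23, 0.187 and 0.287 CPM in untreated NB4. In HL-60 it rose 4.44 to 15.6, 15.3 and 12.4 CPM, against 0.633, 0.703 and 0.646 CPM untreated (difference 6.24 ± 0.42, adjusted p 1.05e-13). LAMB3, a laminin chain of basement membranes, rose 9.37 in NB4 and 4.10 in HL-60. IPCEF1, a partner of the exchange factor cytohesin, rose 5.87 in NB4 and 0.65 in HL-60. APOL1, a lipoprotein-associated trypanosome-killing factor in humans, rose 6.68 in NB4 and 1.39 in HL-60.

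Some of the largest positive differences rest on groups without reads, where only a bound on the NB4 rise can be given, computed against a floor of 3 reads per library. MPEG1, the pore-forming perforin-2 of phagocytes, had 8.89, 10.2 and 11.0 CPM in ATRA-treated NB4 and 0 reads in untreated NB4, at least 151-fold higher with ATRA. HL-60 held 6.32, 6.19 and 6.67 CPM with ATRA and 2.48, 2.05 and 2.39 CPM untreated. LILRA5, an activating leukocyte receptor, was at least 171-fold higher in ATRA-treated NB4, and KIAA1755 at least 166-fold. TNFSF15, a cytokine of the tumour necrosis factor family, was at least 105-fold higher, LRRC32, which anchors latent TGF-beta, at least 87.6-fold, and IL12RB1, a receptor chain for interleukin 12 and 23, at least 39.1-fold. The line difference of TNFSF15 (7.04, adjusted p 0.0333) was lost with halved counts (adjusted p 0.0859), without any 1 untreated NB4 library (adjusted p 0.0506 to 0.0513) and without replicate 3 of untreated HL-60 (4.33, adjusted p 1.0). That of LRRC32 was lost without replicate 2 of untreated HL-60 (4.88, adjusted p 1.0). In all, 194 of the called genes had a group at 0 reads. KCNH4, a potassium channel, and PFKFB2, which makes the glycolytic activator fructose 2,6-bisphosphate, had reads in every group and differed by 8.87 ± 0.76 and 7.19 ± 0.87.

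The largest negative differences among genes expressed in both lines were of genes that fell in NB4 and in HL-60 fell by less, did not change detectably or rose. MRC2 (chr17:62627401-62693597), a collagen-binding endocytic receptor, fell in NB4 to 7.27, 4.91 and 7.22 CPM with ATRA, against 104, 100 and 109 CPM untreated. HL-60 held 169, 158 and 154 CPM with ATRA and 138, 131 and 124 CPM untreated. The lines moved in opposite directions, by -4.01 in NB4 and 0.29 in HL-60, and no groups overlapped (difference -4.30 ± 0.13, adjusted p 1.15e-21). CST7 (chr20:24949230-24959928), the protease inhibitor cystatin F, stood at 5.6, 3.35 and 5.89 CPM in ATRA-treated NB4 and 86.2, 85.4 and 83.2 CPM in untreated NB4. HL-60 had 139, 137 and 151 CPM with ATRA and 122, 129 and 121 CPM untreated, a response of 0.20 that was not called (difference -4.30 ± 0.15, adjusted p 2.41e-20). MMP2, gelatinase A, measured 0.589, 0.413 and 0.228 CPM in ATRA-treated NB4 and 8.96, 9.11 and 8.37 CPM in untreated NB4.

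In HL-60, MMP2 went the other way, with 84.8, 82.0 and 86.5 CPM under ATRA and 31.0, 35.8 and 35.5 CPM untreated (difference -5.74 ± 0.30, adjusted p 1.52e-18). MTUS1, a microtubule-associated tumour suppressor candidate, and EMILIN2, an extracellular matrix glycoprotein, differed by -5.69 ± 0.34 and -5.22 ± 0.30. ATP1B1, the beta subunit of the sodium pump, fell by 3.22 in NB4 and rose 1.3 in HL-60. ASS1, argininosuccinate synthase, fell in both lines, to 10.4, 7.73 and 11.1 CPM in NB4, against 243, 242 and 253 CPM untreated, and to 233, 220 and 223 CPM in HL-60, against 465, 462 and 433 CPM untreated. Its response was -4.66 in NB4 and -1.01 in HL-60, and the tyrosine phosphatase PTPN3 fell likewise by 5.71 and by 1.77. IGFBP4, SH3PXD2A, TNFRSF21 and PTGER4 differed by -3.15, -3.90, -3.43 and -3.11. Of the genes at 0 reads in ATRA-treated NB4, the glutamate receptor GRIK3 was at least 13.7-fold lower there than in untreated NB4, and the oxysterol receptor GPR183 at least 12.3-fold lower. PNPLA3, a lipid droplet lipase, was the largest negative value: it rose 1.82 in NB4, and in HL-60 its ATRA to untreated ratio was 814 (95% counting interval 225 to 6730) over a group that held few reads.

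**Figure D2:**
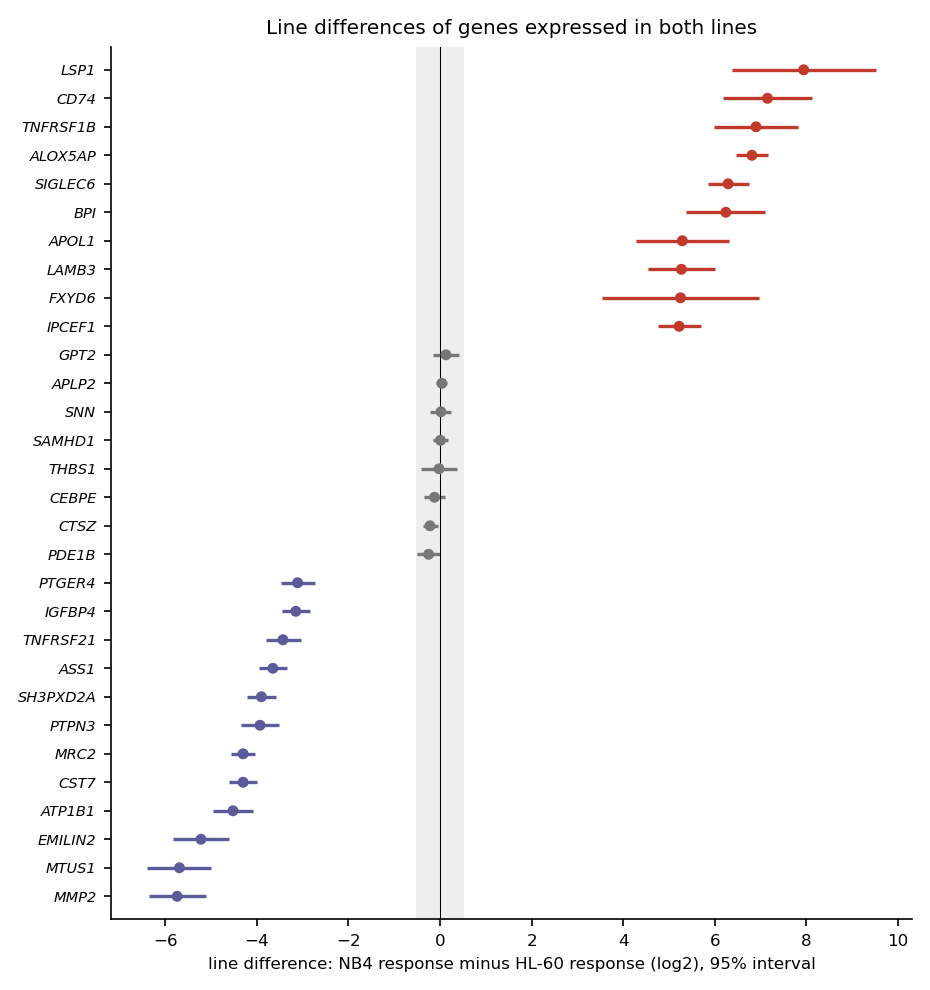
The line difference in the ATRA response (log2, NB4 minus HL-60) with its 95% interval for the largest positive and negative differences among genes expressed in both lines and for the genes with like responses; the grey band marks 0.5 either side of 0. The positive genes with reads in every group lie above 5, the negative ones below -3, and the like genes inside the band.

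A few genes went opposite ways in the lines by large amounts. SIGLEC6, a sialic acid-binding receptor, rose in NB4 to 9.80, 9.02 and 11.3 CPM, against 1.08, 0.935 and 0.902 CPM untreated. It fell in HL-60 to 22.4, 23.4 and 21.4 CPM, against 170 CPM in each of the 3 untreated libraries (difference 6.29 ± 0.22, adjusted p 2.99e-21). The HL-60 libraries stayed above the NB4 ones in either condition. STC2, the secreted glycoprotein stanniocalcin, rose 2.33 in NB4 and fell by 2.64 in HL-60, and the pro-apoptotic BIK rose 2.47 in NB4 and fell by 3.35 in HL-60. XAF1, an antagonist of the apoptosis inhibitor XIAP, rose 3.17 in NB4 and fell by 2.51 in HL-60. In JPH2, a junctophilin, the responses were 2.09 and -3.01, and in TMEM45A 1.72 and -1.72. CX3CR1, the fractalkine receptor, rose 3.77 in NB4 to 9.21, 7.27 and 6.10 CPM, against 0.919, 0.374 and 0.369 CPM untreated, while HL-60 fell by 1.63 to 0.692, 0.755 and 1.27 CPM, against 2.63, 2.95 and 2.78 CPM untreated. GUCY1A2, a subunit of the nitric oxide receptor guanylate cyclase, had 0 reads in ATRA-treated NB4, at least 1.45-fold lower than untreated NB4, and rose 1.86 in HL-60.

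Genes that answered alike included known differentiation genes. CEBPE, the transcription factor of late granulocyte maturation, measured 290, 239 and 298 CPM in ATRA-treated NB4 and 62.0, 62.5 and 62.8 CPM in untreated NB4. HL-60 had 62.0, 57.0 and 56.4 CPM with ATRA and 11.5, 13.0 and 12.1 CPM untreated. The ATRA libraries lay above the untreated ones in each line, by 2.14 and 2.26, and the difference of -0.12 ± 0.11 was not called. THBS1, the matrix protein thrombospondin 1, rose 4.28 in NB4 and 4.30 in HL-60 (difference -0.02 ± 0.19). SAMHD1, which degrades deoxynucleotides, rose 2.22 and 2.21, and APLP2, a relative of the amyloid precursor, rose 2.06 and 2.02. GPT2, a mitochondrial alanine transaminase, fell by 2.19 in NB4 and by 2.32 in HL-60. SNN and PDE1B completed this group of rises that were not called different, and CTSZ, a lysosomal cathepsin, was called different by only -0.22 ± 0.08, a call that was lost on leaving out any of 10 of the 12 libraries.

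MYC was also alike: 280, 249 and 277 CPM in ATRA-treated NB4 and 501, 523 and 564 CPM in untreated NB4, with 400, 382 and 383 CPM in ATRA-treated HL-60 and 700, 759 and 677 CPM in untreated HL-60. It fell by 0.98 in NB4 and by 0.87 in HL-60, a difference of -0.10 ± 0.09 that was not called. PARP1, the sensor of DNA strand breaks, fell by 0.65 and by 0.64, with a difference of -0.02 ± 0.06. MYB, a factor of immature blood cells, fell by 1.24 in NB4 and by 1.13 in HL-60.

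Retinoid genes mostly rose in both lines and by more in NB4. Of 16 measured receptors and enzymes of retinoic acid handling, 9 had a difference more positive in NB4, 1 more negative and 6 did not pass, and 12 rose in each line. DHRS3, which turns retinal back into retinol, stood at 107, 89.8 and 115 CPM in ATRA-treated NB4 and 1.06, 0.841 and 1.91 CPM in untreated NB4. HL-60 held 152, 155 and 161 CPM with ATRA and 15.3, 15.9 and 16.7 CPM untreated. Untreated NB4 was thus far below untreated HL-60, the ATRA groups were much nearer each other, and the response was 6.33 against 3.29 (difference 3.05 ± 0.19, adjusted p 6.15e-15). DHRS9, a retinol dehydrogenase, rose 3.6 in NB4 and 1.55 in HL-60. STRA6, the receptor that takes up retinol, rose 3.90 in NB4 and was uncalled in HL-60 at 0.46.

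The cytochrome gene CYP26B1 of this list reached at most 79.55 CPM in the libraries compared. CYP26A1, a cytochrome that degrades retinoic acid, had 1.72, 1.90 and 2.79 CPM in ATRA-treated NB4. Untreated NB4 held 2 reads in all, a ratio of 145 (95% counting interval 39.8 to 1200). HL-60 had 0.254, 0.227 and 0.227 CPM with ATRA and 0.101, 0 and 0 CPM untreated. Its difference of 4.10 ± 1.63 (adjusted p 0.0402) was 0.52 (adjusted p 0.805) without replicate 1 of untreated HL-60, and the call was also lost with limma-voom (adjusted p 0.08), with halved counts (adjusted p 0.113) and on leaving out any of 5 other libraries. RDH10, which makes retinal, was the exception in direction, with a fall of 1.35 in NB4 and a rise of 0.22 in HL-60. TGM2, a transglutaminase known as an ATRA target in NB4, measured 5270, 4580 and 6070 CPM in ATRA-treated NB4 and 0.0919, 0 and 0.041 CPM in untreated NB4, with 982, 979 and 1020 CPM in ATRA-treated HL-60 and 0.0253, 0.201 and 0.0957 CPM in untreated HL-60. Untreated libraries of both lines held almost no reads, all ATRA libraries held many, and the difference of 3.73 ± 0.88 (adjusted p 0.000494) was lost under limma-voom (adjusted p 0.149) and without replicate 2 of untreated HL-60 (adjusted p 0.0584). The receptor gene RARA rose 0.67 in NB4 and 0.22 in HL-60; gene counts do not separate the fusion from the normal gene. NRIP1, a corepressor of nuclear receptors, had 0 reads in all 6 NB4 libraries and rose 1.48 in HL-60. The median difference of the group was 1.40, or 0.74 with genes of 0 reads set at their floor, against 0.03 for all tested genes.

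**Figure D3:**
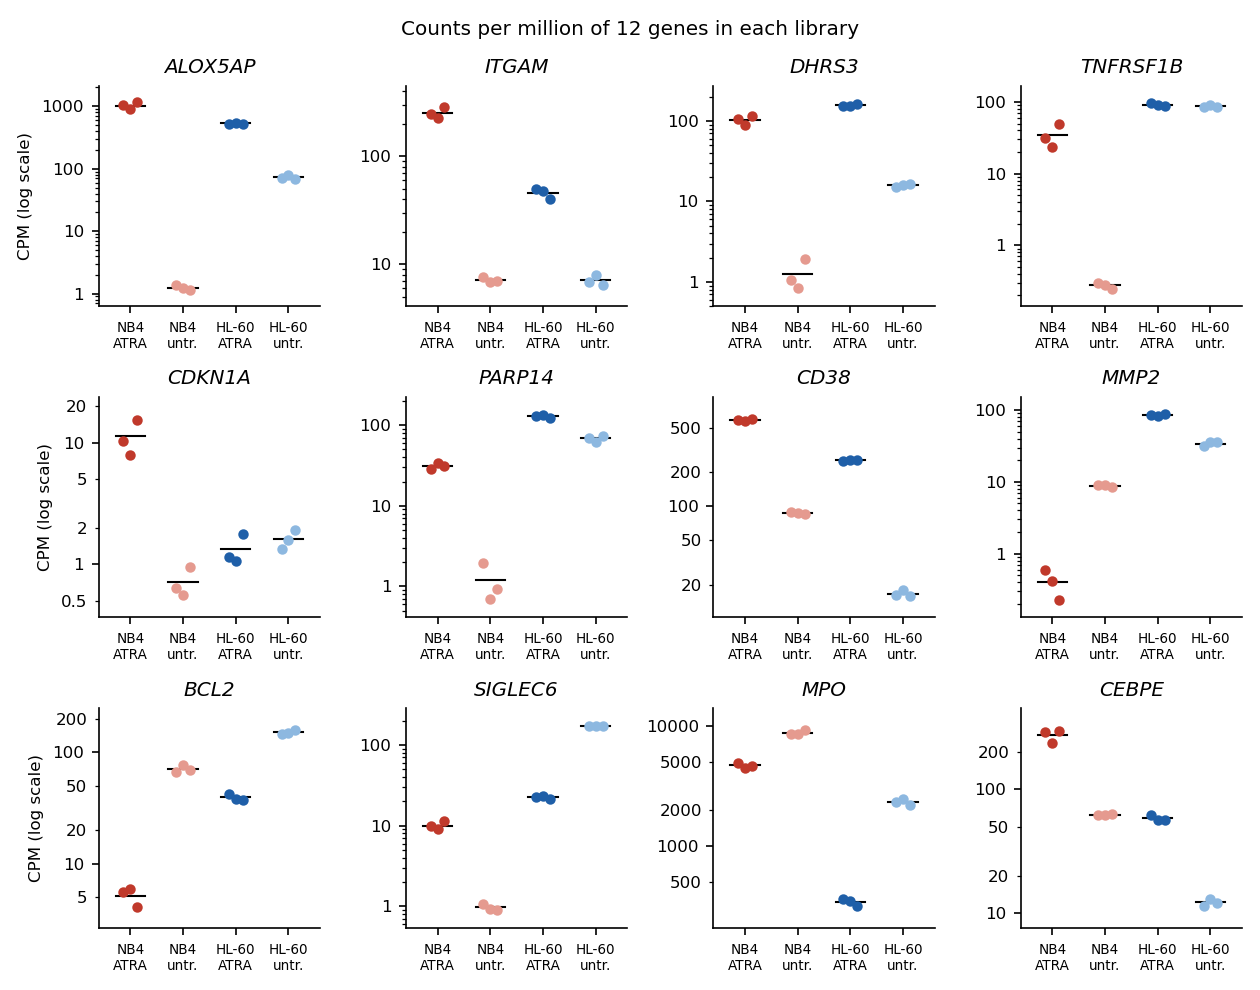
CPM on log axes of 12 genes in each library of ATRA-treated NB4, untreated NB4, ATRA-treated HL-60 and untreated HL-60, with a bar at the group mean. In ALOX5AP, DHRS3 and PARP14 untreated NB4 lies far below untreated HL-60, MMP2 and MPO diverge, and CEBPE moves in parallel.

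Genes of the phagocyte NADPH oxidase, which makes superoxide, mostly rose further in NB4, where 8 of 10 were more positive (17.7% among all genes) and 2 more negative (16.8%). NCF1, the organiser subunit p47phox, measured 1200, 1020 and 1520 CPM in ATRA-treated NB4 and 1.19, 1.78 and 0.923 CPM in untreated NB4. It measured 581, 583 and 582 CPM in ATRA-treated HL-60 and 20.6, 20.3 and 16.9 CPM in untreated HL-60. Untreated NB4 lay lowest and ATRA-treated NB4 highest (difference 5.01 ± 0.21, adjusted p 1.49e-19), though near-identical pseudogene copies make counts of NCF1 uncertain. CYBB, the catalytic subunit, measured 1870, 2090 and 1860 CPM in ATRA-treated NB4 and 200, 209 and 187 CPM in untreated NB4. It measured 982, 992 and 977 CPM in ATRA-treated HL-60 and 206, 201 and 219 CPM in untreated HL-60, so the untreated lines overlapped and the difference was 1.05 ± 0.08. PRAM1, an adaptor of neutrophil signalling, rose 5.46 in NB4 and 1.81 in HL-60. RAC2, the small GTPase of the complex, rose 2.22 and 0.32. Of the pair more negative in NB4, the proton channel HVCN1 fell by 2.04 there and rose 0.31 in HL-60, and the ATP receptor P2RX7 fell by 2.30 in NB4 and by 0.98 in HL-60.

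Of 18 leukocyte integrins and ligands, by which white cells adhere, 12 were more positive in NB4 and 1 more negative. ITGAM, the CD11b chain used to score ATRA differentiation, stood at 246, 225 and 285 CPM in ATRA-treated NB4 and 7.65, 6.89 and 7.04 CPM in untreated NB4. HL-60 had 50.2, 47.6 and 40.5 CPM with ATRA and 6.88, 7.90 and 6.39 CPM untreated. The untreated lines overlapped and all ATRA-treated NB4 libraries lay above the HL-60 ones (5.13 against 2.70, difference 2.43 ± 0.13, adjusted p 1.84e-15). Its partner chain ITGB2 rose 3.28 in NB4 and 1.13 in HL-60. ITGAL, the CD11a chain, rose 2.36 in NB4 and was uncalled in HL-60 at -0.08. The adhesion ligand ICAM1 rose 7.44 and 4.13, while ITGA4 was not called different and fell by 0.23 in NB4 and by 0.44 in HL-60; it was called without replicate 3 of ATRA-treated NB4 (adjusted p 0.0104) and without replicate 2 of untreated HL-60 (adjusted p 0.0447).

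Granule genes gave called differences in both directions. Of 15 azurophil granule genes, which promyelocytes make early, 9 were more positive in NB4, 3 more negative and 3 did not pass. MPO, myeloperoxidase, fell in NB4 to 4940, 4480 and 4650 CPM, against 8610, 8520 and 9170 CPM untreated. In HL-60 it fell further, to 361, 351 and 319 CPM, against 2350, 2460 and 2210 CPM untreated (-0.90 against -2.77, difference 1.86 ± 0.11, adjusted p 6.36e-15). PRTN3, proteinase 3, rose 2.01 in NB4 and fell by 0.80 in HL-60. SERPINB1, an inhibitor of these proteases, rose 4.38 and 1.87. ELANE, neutrophil elastase, had 0 reads in ATRA-treated NB4 and 0.276, 0.187 and 0.123 CPM in untreated NB4, at least 2.69-fold lower with ATRA, against 138, 134 and 129 CPM in ATRA-treated HL-60 and 191, 179 and 157 CPM in untreated HL-60. Its negative difference was lost with limma-voom (-3.64, adjusted p 0.0509). LYZ and CTSG were the other 2 more negative in NB4. Without replicate 2 of ATRA-treated NB4 the list gave 11 more positive and 3 more negative. Of 14 measured genes of the later specific and gelatinase granules, 3 were more positive, 1 more negative and 10 did not pass, although 12 rose in NB4 and 10 in HL-60. Their median difference was 0.97, or 0.91 with genes of 0 reads at their floor. Several had few reads: 4 had a group at 0 reads, and LTF, CAMP and CRISP3 reached at most 0.80, 1.77 and 1.95 CPM. At such levels an uncalled difference does not show a like response. HP, haptoglobin, was the 1 more negative, with rises of 0.99 in NB4 and 2.98 in HL-60.

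Among receptors that guide phagocytes, several rose further in NB4. Among 16 chemoattractant receptors 9 were more positive and 2 more negative. CXCR2, the receptor for interleukin 8, stood at 20.0, 21.4 and 24.5 CPM in ATRA-treated NB4 and 2.02, 2.99 and 2.83 CPM in untreated NB4, with 39.4, 38.6 and 38.8 CPM in ATRA-treated HL-60 and 31.7, 32.9 and 29.6 CPM in untreated HL-60. NB4 rose 3.07 without reaching HL-60, which rose 0.31. CSF3R, the G-CSF receptor, rose 3.12 and 1.40, and PTAFR, for platelet-activating factor, rose 4.37 and 2.32. LTB4R, for leukotriene B4, went against this, with 0.74 in NB4 and 2.14 in HL-60, and the monocyte receptor CCR2 fell by 3.85 in NB4 and was uncalled in HL-60 at -0.23. CXCR5 had 0 reads in untreated NB4 and 2 reads in untreated HL-60, was at least 403-fold higher with ATRA in NB4 and 440-fold in HL-60 (95% counting interval 121 to 3640), and was not called different by edgeR (adjusted p 0.0369 with DESeq2).

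Of 20 measured Fc, complement and pattern receptors 8 were more positive and 3 more negative. The activating Fc receptor FCGR2A rose 1.12 in NB4 and fell by 0.62 in HL-60, and the adaptor TYROBP rose 3.53 and 1.51. The complement receptor CR1 rose by less in NB4, 1.54 against 3.41. The monocyte and macrophage list held 13 of 21 genes more positive and 2 more negative. CD14, the lipopolysaccharide coreceptor, rose 3.69 in NB4 and was uncalled in HL-60 at 0.62, and CD86, a costimulatory ligand, rose 4.86 and 1.10. Both were low, with at most 2.15 CPM for CD14 and 7.14 CPM for CD86 in any library compared. The pair more negative in NB4 were MS4A7 and the monocyte transcription factor KLF4, which fell by 6.13 in NB4 and by 1.32 in HL-60. The ectoenzyme CD38, a classical ATRA target, rose by less in NB4, to 588, 575 and 599 CPM, against 88.4, 86.7 and 85.3 CPM untreated. HL-60 reached 253, 258 and 259 CPM, against 16.2, 18.1 and 16.1 CPM untreated, so the response was 2.76 in NB4 and 3.93 in HL-60 (difference -1.17 ± 0.09, adjusted p 2.3e-12). Levels of CD38 were higher in NB4 under both conditions.

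Among 20 myeloid transcription factors 10 were more positive in NB4 and 5 more negative. SPI1 (PU.1) rose 1.74 in NB4 and 0.60 in HL-60, ID2 rose 4.19 and 2.55, and CEBPB rose 4.54 and 3.84. GFI1, a repressor of granulocyte precursors, fell by 0.85 in NB4 and was uncalled at -0.01 in HL-60. Of 22 Src-family kinases and partners 13 were more positive and 3 more negative, and without replicate 2 of ATRA-treated NB4 13 and 2. FGR rose 10.42 in NB4, to 614, 518 and 734 CPM, against 0.436, 0.561 and 0.369 CPM untreated, and 5.80 in HL-60, to 352, 340 and 353 CPM, against 7.19, 6.23 and 5.36 CPM untreated. PIK3CG, a phosphoinositide kinase of leukocytes, rose by less in NB4, 1.99 against 3.06.

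Interferon-stimulated genes, the antiviral programme switched on by interferon receptors, rose further in NB4. Of 46 measured genes 37 were more positive in NB4, 1 was more negative and 8 did not pass, where 17.7% of all genes were more positive and 16.8% more negative. In NB4 41 of them rose, and in HL-60 27. The median response was 2.48 in NB4 and 0.70 in HL-60, and the median difference 1.56, or 1.54 with genes of 0 reads at their floor. PARP14, an ADP-ribosyltransferase whose promoter match is shown above, measured 28.4, 33.8 and 30.8 CPM in ATRA-treated NB4 and 1.98, 0.701 and 0.944 CPM in untreated NB4. HL-60 had 129, 132 and 123 CPM with ATRA and 68.3, 62.5 and 73.9 CPM untreated. The NB4 groups lay below both HL-60 groups, and the response was 4.69 against 0.91 (difference 3.78 ± 0.21, adjusted p 3.86e-16). OAS3, a sensor of double-stranded RNA, measured 58.5, 55.2 and 61.3 CPM in ATRA-treated NB4 and 2.53, 1.89 and 1.93 CPM in untreated NB4. HL-60 held 35.1, 28.9 and 29.6 CPM with ATRA and 8.25, 6.59 and 5.22 CPM untreated, so that NB4 passed HL-60 (4.79 against 2.22, difference 2.56 ± 0.17).

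DTX3L, a ubiquitin ligase partner of PARP9, rose 2.07 in NB4 and 0.53 in HL-60, and the gene overlaps PARP9 on the opposite strand, so their counts may mix. IFI35 rose 3.86 and 0.95. IFIT5 rose 4.80 and 1.05, and OASL rose 3.57 in NB4 and was uncalled in HL-60 at 0.21. CXCL10, an interferon-induced chemokine, stood at 9.03, 7.83 and 14.2 CPM in ATRA-treated NB4 and 0.368, 0.187 and 0.697 CPM in untreated NB4, while ATRA-treated HL-60 had 0 reads and untreated HL-60 had 0.101, 0.0804 and 0 CPM, at or under the floor, so no fold is given for HL-60. IFI6 was the most abundant member that was not called different (4.10 and 3.78). HERC5, an ISG15 ligase, was the single gene more negative in NB4, where it fell by 2.22 while HL-60 gave 0.01 (difference -2.24 ± 0.18). Without replicate 2 of ATRA-treated NB4 the list gave 33 more positive, 1 more negative and 12 not passed, with a median of 1.53.

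The interferon-stimulated response element was found in the promoters of 24 of the 35 list genes with a RefSeq promoter (68.6%), against 4.38% of all genes with a promoter and 4.08% of those tested. It was in 6.09% of the genes more positive in NB4 and in 3.0% of those more negative. Within the list, of the 24 genes with it 18 were more positive, 1 more negative and 5 not passed (median 1.56), and of the 11 without it 9 were more positive and 2 not passed (median 1.58). In MHC class I presentation, of 19 measured genes 14 were more positive in NB4, 1 more negative and 4 not passed, and 11 of 15 promoters held the element (73.3%).

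PSMB9, an immunoproteasome subunit, measured 34.3, 27.1 and 34.9 CPM in ATRA-treated NB4 and 1.15, 0.748 and 1.95 CPM in untreated NB4. HL-60 had 23.4, 22.5 and 21.7 CPM with ATRA and 12.5, 12.5 and 10.7 CPM untreated. NB4 thus started below HL-60 and ended at or above it (4.62 against 0.92, difference 3.70 ± 0.25, adjusted p 1.27e-13), while PSMB10 rose 2.31 and 0.48 and PSMB8, which overlaps PSMB9, rose 2.07 and 0.54. HLA-B rose 3.32 and 1.10, TAP1, the peptide pump, 1.81 and 0.63, and the aminopeptidase ERAP2 2.33 and 0.94. HLA-F had 0 reads in every NB4 library, and reads of HLA genes may be split among family members. CALR, an endoplasmic reticulum chaperone, was the 1 more negative, with falls of 1.46 in NB4 and 0.85 in HL-60.

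Chemokines and cytokines were more positive in NB4 in 16 of 26 measured genes and more negative in 1, with median responses of 3.64 and 1.10. CXCL8, interleukin 8, reached 384, 327 and 479 CPM in ATRA-treated NB4, against 14.4, 7.64 and 18.5 CPM untreated. It reached 65.0, 63.4 and 65.0 CPM in ATRA-treated HL-60, against 17.1, 14.4 and 15.9 CPM untreated. The untreated lines overlapped and the ATRA groups were apart (4.87 against 2.03, difference 2.84 ± 0.26, adjusted p 2.81e-10). CCL2, the monocyte attractant, measured 604, 531 and 694 CPM in ATRA-treated NB4 and 1.61, 1.82 and 1.93 CPM in untreated NB4, with 109, 111 and 96.3 CPM in ATRA-treated HL-60 and 1.47, 0.603 and 1.44 CPM in untreated HL-60. It rose strongly in both lines, 8.41 and 6.53. VEGFA, the endothelial growth factor, rose 0.86 in NB4 and fell by 1.02 in HL-60, and IL1RN, the interleukin 1 receptor antagonist, fell by 3.80 in HL-60 and was uncalled in NB4 at -0.46. IL18 was the 1 more negative, with 0.62 in NB4 and 1.85 in HL-60.

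NF-kB factors and feedback genes were more positive in 10 of 18 and more negative in 3, with TNFAIP2 at 4.70 and 2.69. The inhibitor NFKBIA rose 1.32 in NB4 and was uncalled in HL-60 at -0.20, and BCL3 rose 3.91 in NB4 and was uncalled at -0.38. The calgranulins S100A9 and S100A8 rose 8.44 and 8.81 in NB4 and 5.45 and 5.68 in HL-60, within a list of S100 proteins and annexins where 6 of 13 were more positive and 2 more negative.

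**Figure D4:**
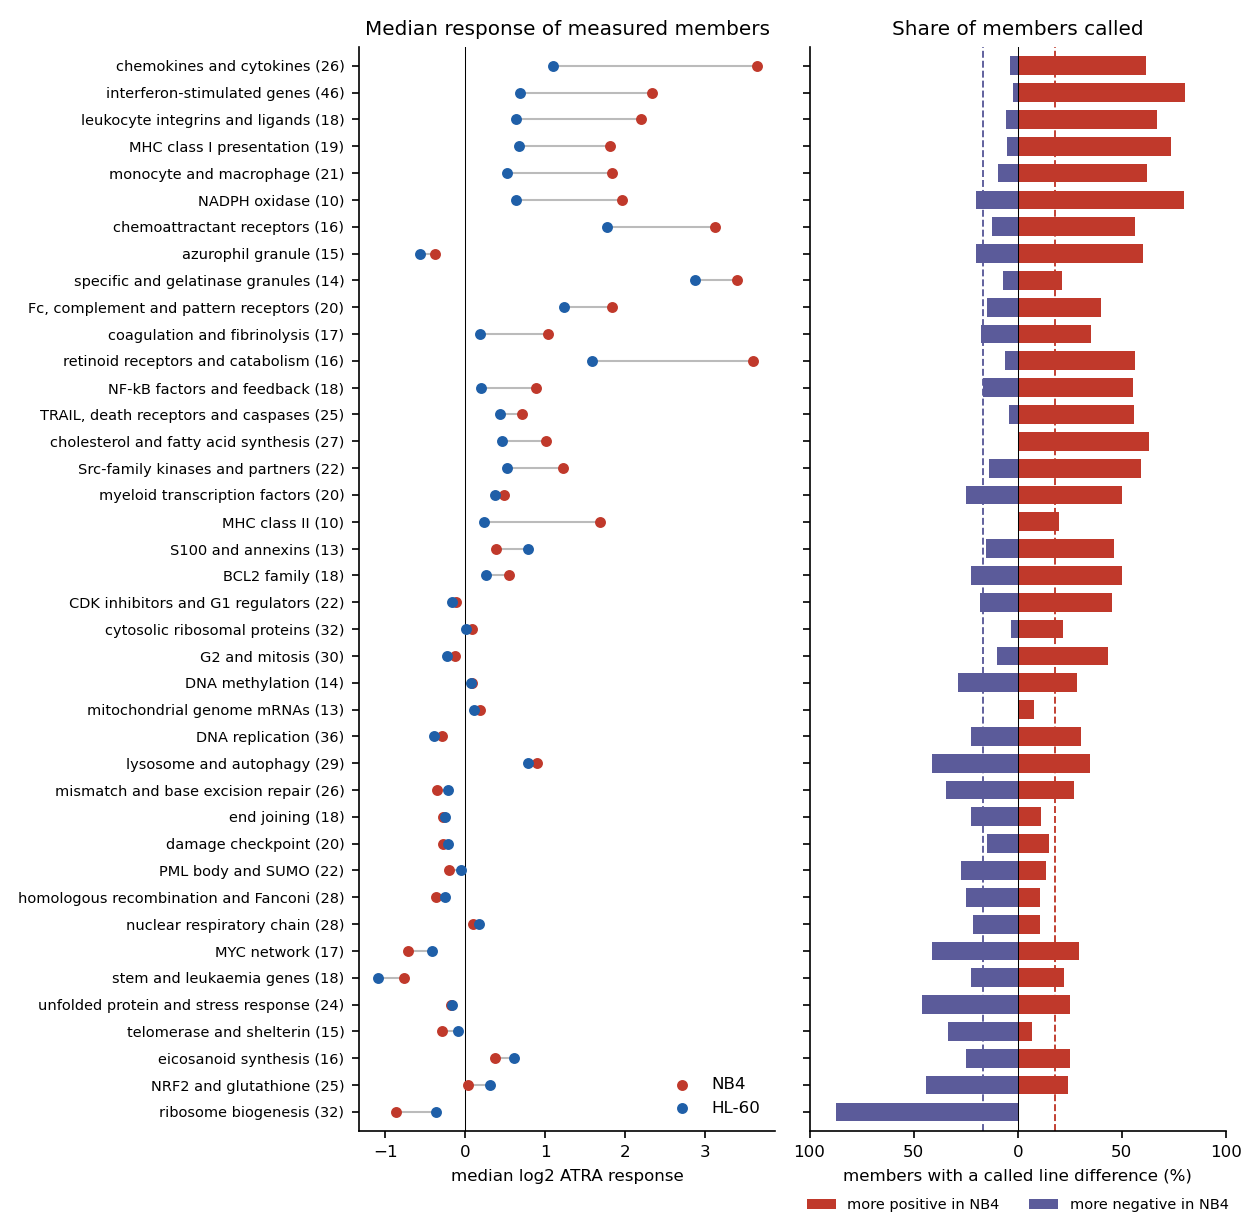
Left, the median ATRA response (log2) of each of 40 gene lists in NB4 and in HL-60, with groups of 0 reads at their floor; right, the share of measured members whose line difference was called more positive or more negative in NB4, with dashed lines at the shares of all tested genes (17.7% and 16.8%). Of interferon-stimulated genes 37 of 46 were more positive, and of ribosome biogenesis genes 28 of 32 more negative.

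Ribosome biogenesis factors, which make and assemble ribosomal subunits in the nucleolus, fell further in NB4. All 32 genes were measured, 28 were more negative in NB4 (16.8% among all genes), 0 were more positive and 4 did not pass. Every one of the 32 fell in NB4 and 27 fell in HL-60, with median responses of -0.87 and -0.37 and a median difference of -0.60. WDR12, a component of the PeBoW complex of large-subunit assembly, measured 59.1, 63.3 and 55.2 CPM in ATRA-treated NB4 and 129, 135 and 125 CPM in untreated NB4. HL-60 had 132, 129 and 128 CPM with ATRA and 151, 165 and 151 CPM untreated. The groups of each line did not overlap, and the fall was 1.13 in NB4 and 0.27 in HL-60 (difference -0.86 ± 0.08, adjusted p 2.35e-10).

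POLR1B, a core subunit of RNA polymerase I, fell by 1.31 and by 0.42. UTP20, of the small-subunit processome, fell by 1.47 and by 0.37 (difference -1.10 ± 0.12), and GNL3, a nucleolar GTPase, by 1.39 and by 0.52 (difference -0.87 ± 0.10). DDX10 and WDR3 fell by 1.22 and 1.3 in NB4 and by 0.30 and 0.44 in HL-60. FBL, the methyltransferase fibrillarin, was the most abundant member not called different, with falls of 0.62 and 0.55. The E-box was in the promoters of 14 of 27 of these genes (51.9%), against 8.77% of all genes with a promoter and 12.3% of those tested. With it, 11 of 14 were more negative (median -0.61), and without it 13 of 13 (median -0.62). Without replicate 2 of ATRA-treated NB4 the list gave the same counts, with a median of -0.61.

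**Figure D5:**
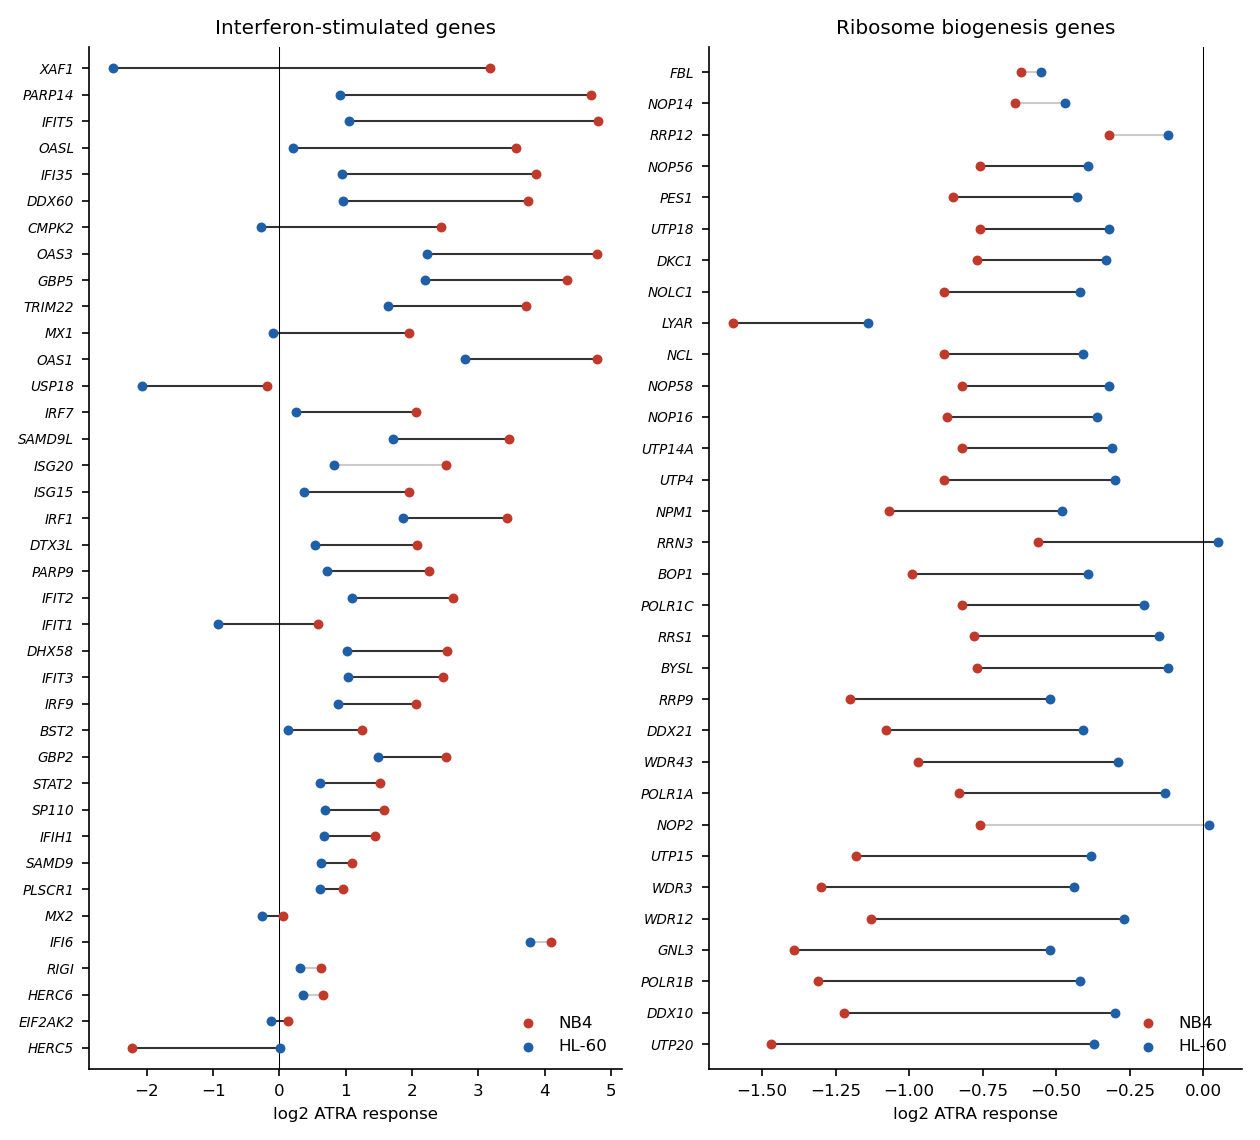
Log2 ATRA responses of single genes in NB4 and in HL-60, joined by a line, for 38 interferon-stimulated genes with reads in all groups and for 32 ribosome biogenesis genes. In the first set most NB4 points lie to the right of the HL-60 points, and in the second set to the left.

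The proteins of the ribosome itself did not follow its assembly factors. Of 32 cytosolic ribosomal protein genes 7 were more positive, 1 more negative and 24 did not pass, with a median difference of 0.11; RPLP0 rose 0.46 in NB4 and was uncalled in HL-60 at 0.06. Without replicate 2 of ATRA-treated NB4, 13 were more positive, 1 more negative and 18 not passed. In the MYC network 5 of 17 were more positive and 7 more negative. CAD, which starts pyrimidine synthesis, fell by 1.41 in NB4 and by 0.49 in HL-60, while the MYC antagonist MXD1 rose 1.65 and 0.60.

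Cell cycle genes did not share a direction. Among CDK inhibitors and G1 regulators 10 of 22 were more positive and 4 more negative. CDKN1A (chr6:36676460-36687339), the CDK inhibitor p21, measured 10.4, 7.92 and 15.5 CPM in ATRA-treated NB4 and 0.643, 0.561 and 0.944 CPM in untreated NB4. HL-60 had 1.15, 1.06 and 1.77 CPM with ATRA and 1.34, 1.59 and 1.91 CPM untreated. The HL-60 groups overlapped, and p21 rose 3.96 in NB4 with an uncalled -0.29 in HL-60 (difference 4.25 ± 0.36, adjusted p 3.81e-11). CCND1, cyclin D1, rose 1.04 in NB4 and fell by 1.24 in HL-60, and overlaps LTO1 on the opposite strand. BTG2, an antiproliferative factor, rose 5.55 and 3.07.

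DNA replication genes fell in both lines, 29 of 36 in NB4 and 31 in HL-60, with 11 differences more positive, 8 more negative and a median of 0.03. RRM2, of ribonucleotide reductase, rose 0.72 in NB4 and was uncalled in HL-60 at -0.07, and TK1, thymidine kinase, rose 0.83 and fell by 0.21. Of 30 genes of G2 and mitosis 13 were more positive and 3 more negative, and without replicate 2 of ATRA-treated NB4 12 and 9. CCNB2, cyclin B2, rose 0.17 in NB4 and fell by 0.31 in HL-60. TERT, the telomerase catalytic subunit, fell to 0.368, 0.632 and 0.754 CPM in ATRA-treated NB4, against 15.8, 15.1 and 17.8 CPM untreated, and to 0.900, 1.11 and 0.522 CPM in ATRA-treated HL-60, against 9.82, 9.85 and 10.4 CPM untreated (difference -1.23 ± 0.31, adjusted p 0.00161). In telomerase and shelterin 1 of 15 was more positive and 5 more negative.

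DNA repair lists held differences in both directions. In homologous recombination and Fanconi genes 3 of 28 were more positive and 7 more negative, in end joining 2 and 4 of 18, in mismatch and base excision repair 7 and 9 of 26, and in checkpoint genes 3 and 3 of 20, against 17.7% and 16.8% of all genes. Without replicate 2 of ATRA-treated NB4 these counts were 3 and 9, 2 and 6, 5 and 10, and 4 and 5, in the same order. XRCC2, of homologous recombination, fell by 1.15 in NB4 and by 0.22 in HL-60. RIF1, which protects broken ends from resection, fell by 0.97 and by 0.33. MPG, a DNA glycosylase whose gene overlaps NPRL3, rose 0.44 in NB4 and fell by 2.09 in HL-60, a difference of 2.53 ± 0.16. CHEK1, a checkpoint kinase, fell by 0.64 and by 0.46 and was not called different (-0.18 ± 0.09, adjusted p 0.157), but without replicate 2 of ATRA-treated NB4 it was (-0.28, adjusted p 0.00997).

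Death and survival genes held differences both ways. Of 25 genes of the TRAIL, death receptor and caspase list 14 were more positive and 1 more negative, and of 18 BCL2 family genes 9 and 4. TNFRSF10B, a TRAIL receptor, rose 0.96 in NB4 and fell by 0.49 in HL-60, and CASP1 rose 2.53 and 0.89. TNFSF10, TRAIL itself, fell in both lines, by 0.68 and by 1.64. BCL2 fell to 5.55, 5.88 and 4.11 CPM in ATRA-treated NB4, against 65.9, 77.6 and 69.2 CPM untreated. In HL-60 it fell to 42.4, 38.4 and 37.1 CPM, against 146, 148 and 160 CPM untreated (-3.78 against -1.94, difference -1.83 ± 0.13, adjusted p 5.51e-13). MCL1, a relative that also blocks apoptosis, rose 1.35 in NB4 and 0.37 in HL-60, and BCL2A1 rose 6.52 and 4.04.

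Metabolic lists went both ways. Cholesterol and fatty acid synthesis was more positive in NB4 in 17 of 27 genes and more negative in none, with 25 genes rising in NB4 and 19 in HL-60 and a median difference of 0.49. INSIG1, the sterol sensor, measured 747, 614 and 793 CPM in ATRA-treated NB4 and 269, 243 and 282 CPM in untreated NB4, with 219, 220 and 212 CPM in ATRA-treated HL-60 and 151, 161 and 168 CPM in untreated HL-60. ELOVL6, a fatty acid elongase, rose 2.32 and 0.41, and FDPS, of isoprenoid synthesis, rose 1.04 in NB4 and was uncalled in HL-60 at 0.13. In the NRF2 and glutathione list 6 of 25 were more positive and 11 more negative, and without replicate 2 of ATRA-treated NB4 9 and 10. The positive ones included the pentose phosphate enzymes TKT (2.39 and 1.04) and PGD (2.83 and 1.87). NQO1, a quinone reductase, fell by 2.25 in NB4, to 9.18, 8.56 and 9.14 CPM, against 42.6, 42.4 and 43.0 CPM untreated, while HL-60 was uncalled at 39.4, 43.7 and 39.9 CPM with ATRA and 45.5, 47.3 and 45.2 CPM untreated.

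Lysosome and autophagy genes split into 10 more positive and 12 more negative of 29. PSAP, the saposin precursor, stood at 894, 820 and 934 CPM in ATRA-treated NB4 and 354, 344 and 350 CPM in untreated NB4, and at 3380, 3440 and 3390 CPM in ATRA-treated HL-60 and 341, 337 and 305 CPM in untreated HL-60. The untreated lines were near each other and HL-60 rose the more (1.34 against 3.38, difference -2.04 ± 0.07, adjusted p 7.94e-20). The cathepsin CTSB rose 1.71 in HL-60 and was uncalled in NB4 at -0.09, and the peptidase TPP1 rose 2.29 in NB4 and 0.71 in HL-60. In the unfolded protein and stress response 6 of 24 were more positive and 11 more negative. HSPA5, the chaperone BiP, fell by 0.45 in NB4 and rose 0.21 in HL-60. Of 13 mitochondrial genome mRNAs 1 was more positive and 12 did not pass; that one, MT-CO3 (0.26, adjusted p 0.0396), was not called on leaving out any of 6 libraries.

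The line difference was also computed for ATRA with arsenic trioxide, which uses the same untreated libraries, so the values are set side by side with no test between them. ITGAM differed by 3.44 with both drugs and 2.43 with ATRA, and DHRS3 by 3.30 and 3.05. CD38 differed by -0.19 with both drugs and -1.17 with ATRA, and MYC by -0.92 and -0.10. CCL2 gave -3.10 with both drugs and 1.88 with ATRA, CXCL8 0.18 and 2.84, TNFAIP2 0.32 and 2.01, and BTG2 -0.45 and 2.48.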

How the data were processed

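Gene counts were deposited by the authors as raw counts for 60655 genes; per the labels' protocols they came from poly(A)-selected libraries (Illumina TruSeq) sequenced as paired-end 150 bp reads. Per the submitters' processing notes, fastp, HISAT2, featureCounts, DESeq2 and GRCh38 were used; the sources used here do not state tool versions, strandedness, annotation release or whether reads or fragments were counted. A name was given for 60400 genes (99.58%), and GENCODE v29 held 58437 (96.34%); 44 pseudoautosomal Y copies held 0 counts. Overlapping genes cannot be told apart without strand.

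Counts were fitted with edgeR 4.0.16 (R 4.3.3; filterByExpr, TMM, 8 groups, 24 libraries, 16 residual degrees of freedom), leaving 17930 genes. The biological coefficient of variation was 7.98%, and counting error is small beside it except at few reads. P-values were adjusted by Benjamini-Hochberg over all tested genes and called below 0.05. SE are Wald errors; CPM use TMM-scaled library sizes. Intervals of the line difference are built from these SE and include the spread between libraries. Counting intervals and floors cover counting error only. Of counts from 1 to 9 in a library, 72.2 to 75.4% were even, as when both reads of a pair are counted; if so, counting intervals are too narrow. The 50 lists (1028 members), the panel of 22 genes and the comparison were chosen with earlier results of these data known.

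Named genes include the 12 largest differences each way and the 8 largest opposite responses. These are protein-coding, called, at 5 CPM or more in the highest group and of 1 sign in all 3 batches. The 8 largest like responses are protein-coding and at 5 CPM or more in the highest group. The 4 called members of smallest p of each list, its most abundant uncalled member and the panel were taken without these limits on type, level and sign. The 12 largest each way with 5 CPM in both lines, and some list members, were added after values were seen. The labels' batch numbers were checked as a pairing: residuals of same-numbered libraries correlated at -0.0617 to 0.0246 (18 pairs), so no block was used. Alternatives were DESeq2 1.42.0, limma-voom (limma 3.58.1), other scalings and filters, halved counts, each library left out, and a block by batch. The pipeline was tested on simulated data. Some named genes are not reported here.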

Additional observations from a re-analysis of the deposited data

Results flagged for a closer look

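The line difference is itself a test of unequal effects under the same treatment, and it drew attention to the 6185 genes called in it. Of the genes named for opposite responses, each was picked out because NB4 and HL-60 moved in opposite directions and the test of the difference was passed. SIGLEC6 gave 6.29, BIK 5.82, XAF1 5.68, JPH2 5.10, STC2 4.97 and TMEM45A 3.44 (log2, NB4 minus HL-60, edgeR). CXCL10 gave 9.13 and GUCY1A2 -7.13, values that depend on the prior count because ATRA-treated HL-60 had 0 reads for CXCL10 and ATRA-treated NB4 had 0 reads for GUCY1A2. XAF1, BIK and TMEM45A stayed under 2 CPM in NB4. No cause was tested.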

How the results depend on the processing

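The count of 6185 genes was 6628 with DESeq2 (6150 called by both in the same direction) and 6266 with limma-voom (5882). It was 6030 with a replicate block and 6064 with a replicate block within each line. With only the 12 libraries compared it was 5995, of which 48.3% were more positive in NB4. Calls shared with any setting held no opposite direction. Leaving out 1 library gave 5666 to 6442 genes called, 2900 to 3244 more positive in NB4, 2487 to 3198 more negative, 9199 to 9892 in NB4, 6795 to 7828 in HL-60, 502 to 630 opposite, 1563 to 1842 alike, 10770 to 11525 between untreated lines and 12046 to 12675 between ATRA-treated lines. At an adjusted p below 0.01, 377 genes in place of 598 went opposite ways. At 5 CPM or more in both lines, a filter added after the data were seen, the calls of the main fit were counted among fewer genes. Of those genes 7436 differed between ATRA-treated lines and 6978 between untreated lines. The Spearman rho was 0.647 at a mean of 10 CPM and 0.516 with a prior count of 2, and the Pearson r 0.74 and 0.614; the cause was not tested. Other scalings and library sets shifted the line difference of a gene by a median over genes of -0.021 to 0.037. They gave 48.3 to 56.1% of calls more positive, against 51.4%. Of 16 eicosanoid genes 4 were more positive and 4 more negative; their median of 0.14 was -0.16 with groups of 0 reads at their floor and -0.22 without replicate 2 of ATRA-treated NB4. Of 217 called named genes 202 kept their call in every setting and 0 changed direction. Depth limits genes with groups at 0 reads, whose fitted differences depend on the prior count.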

Other observations

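Some markers of lymphoid cells had reads in both lines. The T cell receptor gene TRAC fell to 0.270, 0.340 and 0.480 CPM in ATRA-treated NB4, against 20.0, 17.5 and 21.9 CPM in untreated NB4, and to 0.462, 0.302 and 0.159 CPM in ATRA-treated HL-60, against 11.2, 10.0 and 11.0 CPM in untreated HL-60, a difference of -0.63 ± 0.39 that was not called (adjusted p 0.236). CD79A, a B cell receptor chain, measured 11.1, 9.24 and 11.8 CPM in ATRA-treated NB4 and 1.68, 1.73 and 1.85 CPM in untreated NB4, with 1.25, 1.68 and 1.13 CPM in ATRA-treated HL-60 and 0.734, 0.724 and 0.694 CPM in untreated HL-60 (difference 1.69 ± 0.24, adjusted p 1.91e-06). CD79B went the other way in NB4, with 0.0491 to 0.274 CPM under ATRA and 0.923 to 1.54 CPM untreated. EBF1 had 48 reads in untreated NB4 and 0 with ATRA. Neither difference was called in the main fit. Of the 7 B and plasma cell markers tested, 3 rose and 2 fell in NB4. NKG7, a granule protein of cytotoxic lymphocytes, rose 1.42 in NB4 and 1.04 in HL-60.

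Coagulation genes, which bear on the bleeding of acute promyelocytic leukaemia, split. Of 17 measured genes 6 were more positive in NB4 and 3 more negative, and without replicate 2 of ATRA-treated NB4 7 and 2. ANXA2, the plasminogen receptor of these cells, fell to 6.6, 7.17 and 8.00 CPM in ATRA-treated NB4, against 34.7, 32.3 and 35.4 CPM in untreated NB4, and to 81.7, 86.9 and 82.0 CPM in ATRA-treated HL-60, against 196, 205 and 193 CPM in untreated HL-60 (-2.23 against -1.25, difference -0.99 ± 0.10, adjusted p 7.29e-10). SERPINB2, an inhibitor of plasminogen activators, rose 6.52 in NB4 and 1.48 in HL-60. PLAU, urokinase, was not called different, with rises of 1.49 and 1.51. Its receptor PLAUR rose 1.03 in NB4 and fell by 0.37 in HL-60. Of 14 DNA methylation genes 4 were more positive and 4 more negative, and the methyltransferase DNMT3B fell by 1.80 in NB4 and by 0.99 in HL-60.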
